A study of Mus musculus with 12 samples.

Results

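Integrins and the proteins of the focal adhesion plaque were followed in the mouse thoracic aorta: 15 integrin α subunits, 8 integrin β subunits, the β-like protein Itgbl1 and 9 plaque genes, 33 genes of the 19687 with a row of their own. They were taken by name, as every integrin symbol plus Vcl, Tln1, Tln2, Ptk2, Pxn, Zyx, Ilk, Parva, Fermt2 and Bcar1, and a gene with several rows was read from its brightest row. Itga1, Itga4 and Itgax lay only on rows shared with other genes and were not included, and Ptk2 was not analysed here. Levels are log2 intensities of Affymetrix mouse exon arrays, 1 array per mouse and none pooled. The 7 P467L mice were male transgenics carrying human PPARγ with the dominant-negative P467L mutation, targeted to vascular smooth muscle by the smooth muscle myosin heavy chain promoter, and the 5 nontransgenic mice were their male littermates. All mice were C57BL/6, no treatment is recorded, and the labels do not state an age. The comparison asks how the vessel wall differs when a blocking form of PPARγ is made in its muscle. The transgene acts in smooth muscle, whereas the RNA came from the whole vessel, so a change in smooth muscle RNA and a change in the share of smooth muscle cells cannot be told apart.

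Integrins are pairs of an α and a β subunit that cross the cell membrane and hold the cell to the matrix outside it. Talin and kindlin bind the short inner tail of the β subunit and switch the pair to its adhesive state, and vinculin, the ILK and parvin complex, paxillin and zyxin tie it to actin. In arterial smooth muscle these adhesions pass the force of contraction to collagen, fibronectin and laminin, and they also sense the stretch of the wall.

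The arrays carried the signature of smooth muscle. All 9 measured smooth muscle markers lay well above the background level of 5.18, under which 95% of 921 smell and pheromone receptor genes fell, with gene means between 8.39 and 11.83. Their mean deviation ranged from -0.21 to 0.23 in P467L mice and from -0.05 to 0.05 in nontransgenic mice. Of the leukocyte markers 12 of 14 were above background, of the platelet markers 7 of 8, of the adipocyte markers 7 of 8 and of the fibroblast markers 8 of 9. Of the endothelial markers 10 of 12 were, of the nerve and Schwann cell markers 5 of 7 and of the lymphocyte markers 0 of 8. Single endothelial markers differed by -0.88 to 0.52 (P467L minus nontransgenic, log2), none past the threshold given below. The skeletal muscle markers stood 2.61 above their mean in P467L replicate 4, against -0.46 to 0.24 in the other 11 mice. The median of an array was 4.74 to 4.79 and its upper quartile 6.10 to 6.38. The upper quartile was lower in the P467L mouse of all 5 pairs with equal replicate number.

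No integrin or focal adhesion gene differed between P467L and nontransgenic aortas past the threshold, a limma p under 0.05 after Benjamini-Hochberg adjustment over all genes. The lowest limma adjusted p among the 33 was 0.720, for Zyx. Of all 19687 genes, 48 (0.244%) passed, 23 higher and 25 lower, with between 11 and 48 when 1 mouse was left out and 30 (0.152%) with the replicate number as a block. At an unadjusted p under 0.05, 2 of the 33 differed, Zyx and Itga8, both lower, where 949 of all genes did (4.82%). The groups did not overlap in 0 of the 33 and in 143 of all genes (0.726%). The median difference, P467L minus nontransgenic on the log2 scale, was 0.0079 over the 33 and 0.0013 over all genes. Differences among the 33 ran from -0.35 for Itgb8 to 0.31 for Itgav.

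The intervals lay within 0.5 log2 units of 0 for most of these genes, as they did for most of all genes. The 95% interval of the difference lay within 0.5 log2 units on either side of 0 for 28 of the 33, and within 0.25 for 19. Of all 19687 genes 16201 and 5618 met these limits. The lowest bound was -0.73, for Itgb8, and the highest 0.62, for Itgav. A difference in intensity of 1 log2 unit thus lay outside all 33 intervals, as for 19301 of all 19687 genes. In 6 of the 33 both means were under background, where a narrow interval does not exclude a larger change in RNA. The 5 genes whose interval crossed 0.5 were Itga5, Itgav, Itgb8, Tln2 and Zyx.

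**Figure D1:**
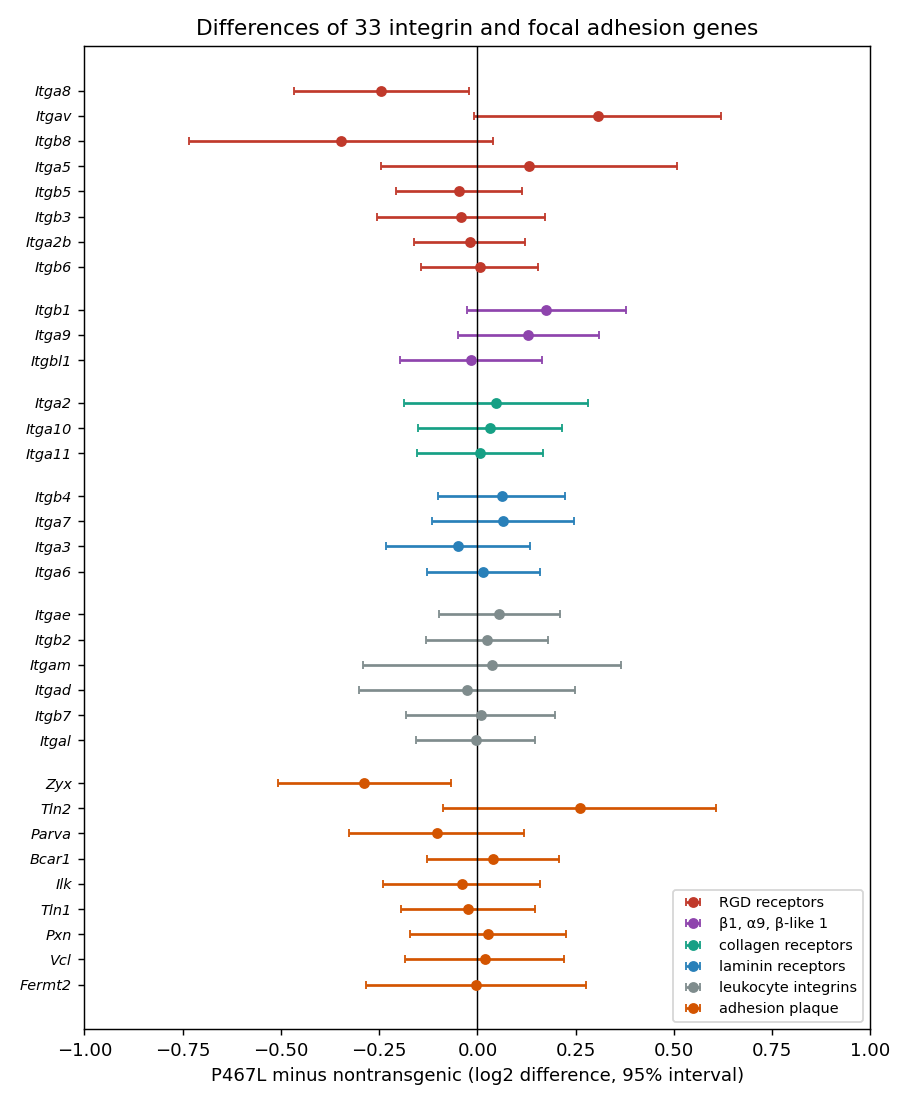
Differences P467L minus nontransgenic on the log2 scale with their 95% intervals from limma for the 33 genes, grouped by what the protein binds or does (7 P467L and 5 nontransgenic mice). The intervals of Zyx and Itga8 lie below 0, those of Itgav and Itgb8 reach furthest from 0, and all but those of Zyx and Itga8 cross it.

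The integrins that recognise the RGD sequence of fibronectin, vitronectin and latent TGF-β held the largest differences of the receptor genes. Itga8, whose α8 chain pairs with β1 in smooth muscle, ranged from 10.87 to 11.36 with a median of 11.07 in P467L mice, against 11.24, 11.40, 11.27, 11.46 and 11.44 in nontransgenic mice. P467L replicates 1 to 4 lay below every nontransgenic mouse, and replicates 5 to 7 lay within their range. The means were 11.12 ± 0.21 (SD, n = 7) in P467L and 11.36 ± 0.10 (SD, n = 5) in nontransgenic mice, a log2 difference of -0.24 ± 0.10 (SE), or 0.844 times the nontransgenic level (limma adjusted p = 0.962). Without the 3 least correlated arrays, of P467L replicates 1 and 2 and nontransgenic replicate 2, it was -0.16.

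Itgav, the αv chain shared by the vitronectin receptors and the activators of TGF-β, ranged from 7.25 to 8.005 with a median of 7.67 in P467L mice, against 7.15, 7.17, 7.30, 7.52 and 7.60 in nontransgenic mice. P467L replicates 4 to 7 lay above every nontransgenic mouse, and replicates 1 to 3 overlapped with them. Its difference of 0.31 ± 0.15 (SE) did not pass (limma adjusted p = 0.999), and the dimmer further row of Itgav, with a mean of 3.02 under background, differed by 0.30. Itgb8, the β8 partner of αv that releases active TGF-β, ranged from 5.32 to 6.39 with a median of 6.14 in P467L mice, against 6.01, 6.02, 6.54, 6.43 and 6.61 in nontransgenic mice. P467L replicates 1, 2 and 4 lay below every nontransgenic mouse, and the spread within each group was wide (SD 0.37 and 0.29). Its difference was -0.35 ± 0.18 (SE; limma adjusted p = 0.999), and -0.23 without those 3 arrays.

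Of the other RGD receptors, Itga5, the α5 chain of the classical fibronectin receptor, differed by 0.13 ± 0.17 with an interval from -0.25 to 0.51. P467L replicate 3 was at 8.41, the other P467L mice lay between 7.32 and 7.68, and the nontransgenic mice lay between 7.26 and 7.68. Without P467L replicate 3 its difference was -0.0092, and without the 3 least correlated arrays it was 0.24. Itgb5, another partner of αv, differed by -0.05 ± 0.07, and Itgb3, the β3 chain of the vitronectin and platelet fibrinogen receptors, by -0.04 ± 0.10. Itga2b, the platelet partner of β3, differed by -0.02 ± 0.07 at a level just above background in both groups (5.25 in P467L and 5.27 in nontransgenic mice). Itgb6, an epithelial chain, was under background in both groups, at 3.04 in P467L and 3.04 in nontransgenic mice.

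Itgb1, the β1 chain that serves most matrix receptors of the muscle cell, ranged from 10.76 to 11.21 with a median of 10.95 in P467L mice, against 10.64, 10.88, 10.67, 10.91 and 10.82 in nontransgenic mice. P467L replicates 4 to 7 lay above every nontransgenic mouse. The difference of 0.18 ± 0.09 (SE) did not pass (limma adjusted p = 0.999). Its partner Itga9, a receptor chain for tenascin and osteopontin, differed by 0.13 ± 0.08 (0.08 without nontransgenic replicate 3), and Itgbl1, a secreted β-like protein, by -0.02 ± 0.08.

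**Figure D2:**
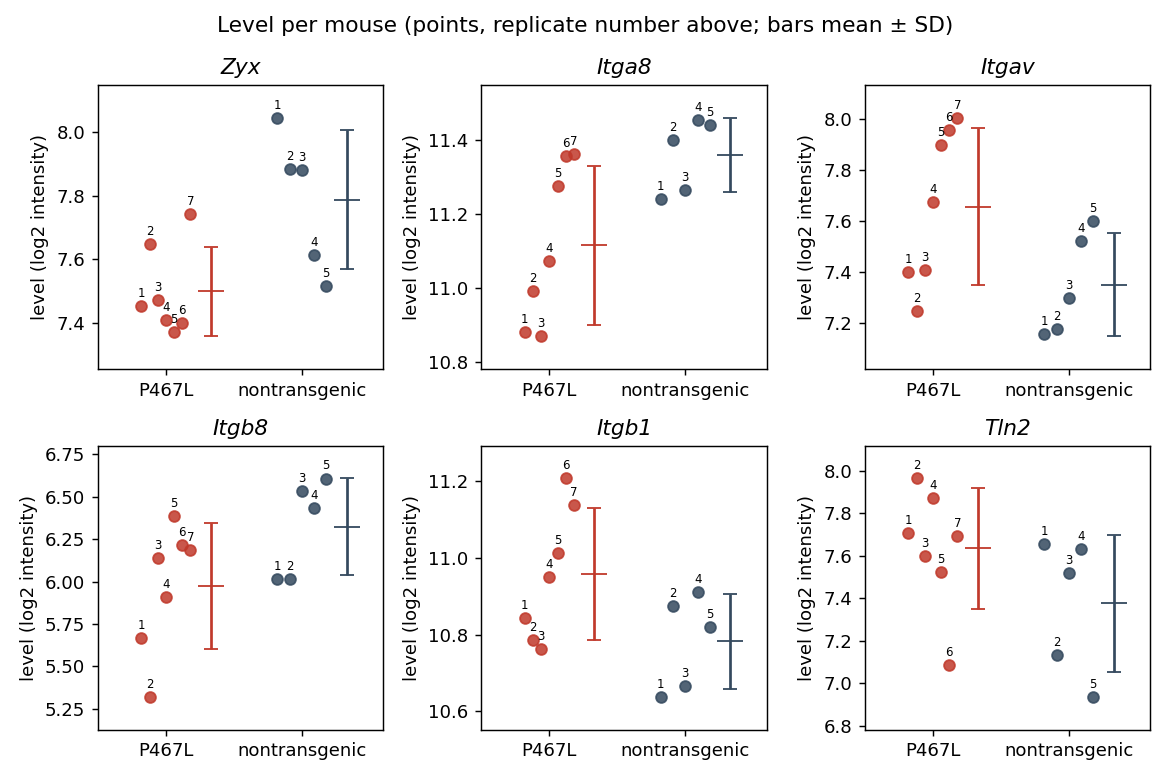
Level of the 6 genes with the smallest unadjusted p in each mouse, in log2 intensity, with the replicate number beside each point and the mean ± SD to its right (7 P467L and 5 nontransgenic mice; the vertical axes do not start at 0). The groups overlap in all 6 genes.

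The collagen and laminin receptor chains with a row of their own differed little, but several lay near background, where differences can be hidden. The collagen-binding chains Itga2, Itga10 and Itga11 differed by 0.05 ± 0.11, 0.03 ± 0.09 and 0.01 ± 0.07 (SE). Itga2 was under background in both groups. Itga11 lay just above it, at 5.27 in P467L and 5.27 in nontransgenic mice, and Itga10 was at 5.47 and 5.44. Of the laminin-binding chains Itga6 also lay just above background, at 5.21 in P467L and 5.20 in nontransgenic mice. The laminin-binding chains Itga3, Itga6 and Itga7 differed by -0.05 ± 0.09, 0.02 ± 0.07 and 0.06 ± 0.08, and Itgb4, which pairs with α6 in hemidesmosomes, by 0.06 ± 0.07. All 7 intervals of these chains lay within 0.5 log2 units of 0. Itga7, the laminin receptor of muscle fibres, was at 6.22 in P467L replicate 4, the lowest of the P467L mice, and that mouse had the highest skeletal muscle markers. The part of skeletal muscle in the Itga7 values was not tested.

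Of the integrins of leukocytes, Itgal, Itgad, Itgae and Itgb2 had both means under the background level, and Itgam and Itgb7 lay at or just above it. Itgb2, the β2 chain that αL, αM and αD share, differed by 0.02 ± 0.07 (SE), and Itgb7, the β7 chain of gut-homing lymphocytes, by 0.01 ± 0.09. Itgal, Itgam, Itgad and Itgae differed by -0.0048 ± 0.07, 0.04 ± 0.15, -0.03 ± 0.13 and 0.06 ± 0.07, and the further rows of Itgad by 0.01 and 0.15. Itgam, the αM chain of macrophages and neutrophils, was at 5.82 in P467L replicate 3 and at 5.65 in nontransgenic replicate 3, against 4.93 to 5.29 in the other P467L mice and 4.97 to 5.12 in the other nontransgenic mice. The leukocyte markers had their highest score of each group in the same mice, 0.27 in P467L replicate 3 and 0.34 in nontransgenic replicate 3, in ranges from -0.19 in both groups. The summed log2 level of the 14 measured leukocyte markers is the same measure on another scale. It ran from 86.81 to 93.30 in P467L mice and from 86.75 to 94.16 in nontransgenic mice. P467L replicate 3 and nontransgenic replicate 3 also had the highest adipocyte score of their group, 0.30 and 0.36. Their smooth muscle scores, -0.21 and -0.05, were the lowest of their group. The part of any of these scores in the Itgam values was not tested.

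In the adhesion plaque the gene with the smallest p was Zyx, which encodes zyxin, a LIM protein that gathers actin-polymerising factors where an adhesion is under tension. Zyx ranged from 7.37 to 7.74 with a median of 7.45 in P467L mice, against 8.04, 7.88, 7.88, 7.61 and 7.52 in nontransgenic mice. P467L replicates 1 and 3 to 6 lay below every nontransgenic mouse, and replicates 2 and 7 lay among the nontransgenic values. The means were 7.50 ± 0.14 (SD, n = 7) in P467L and 7.79 ± 0.22 (SD, n = 5) in nontransgenic mice, a log2 difference of -0.29 ± 0.10 (SE), or 0.819 times the nontransgenic level (limma adjusted p = 0.720).

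Of the talins, Tln1, the widely expressed one, differed by -0.02 ± 0.08 (SE), with an interval from -0.19 to 0.15. Tln2, the second talin, ranged from 7.09 to 7.96 with a median of 7.69 in P467L mice, against 7.66, 7.13, 7.52, 7.63 and 6.94 in nontransgenic mice. The lowest values of Tln2 were in P467L replicate 6 and in nontransgenic replicates 2 and 5, and the groups overlapped over most of their range. It differed by 0.26 ± 0.16 (limma adjusted p = 0.999), while its dimmer row, with a mean of 5.31, differed by 0.04. Without nontransgenic replicate 5 the difference of Tln2 was 0.15, and without the 3 least correlated arrays it was 0.12.

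The remaining plaque genes lay within 1 SE of 0 or just beyond it. Fermt2, kindlin-2, differed by -0.0039 ± 0.13 (SE), and Vcl, vinculin, by 0.02 ± 0.09. Ilk, the integrin-linked pseudokinase, differed by -0.04 ± 0.09, and its partner Parva, α-parvin, by -0.10 ± 0.10. The difference of Parva was -0.18 without P467L replicate 7, -0.07 without nontransgenic replicate 2 and -0.02 without the 3 least correlated arrays. Pxn, paxillin, and Bcar1, the stretch-sensing adaptor p130Cas, differed by 0.03 ± 0.09 and 0.04 ± 0.08, and the nontransgenic mean of Bcar1 (5.17) was under background. P467L replicate 7 had the highest Parva (8.28, against 7.68 to 7.81 in the other P467L mice), Vcl (9.06) and Tln1 (7.59) of all 12 mice, and the highest smooth muscle score (0.23). It also had the lowest adipocyte score, -0.66, against -0.33 to 0.36 in the other 11 mice. The part of either score in these values was not tested.

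**Figure D3:**
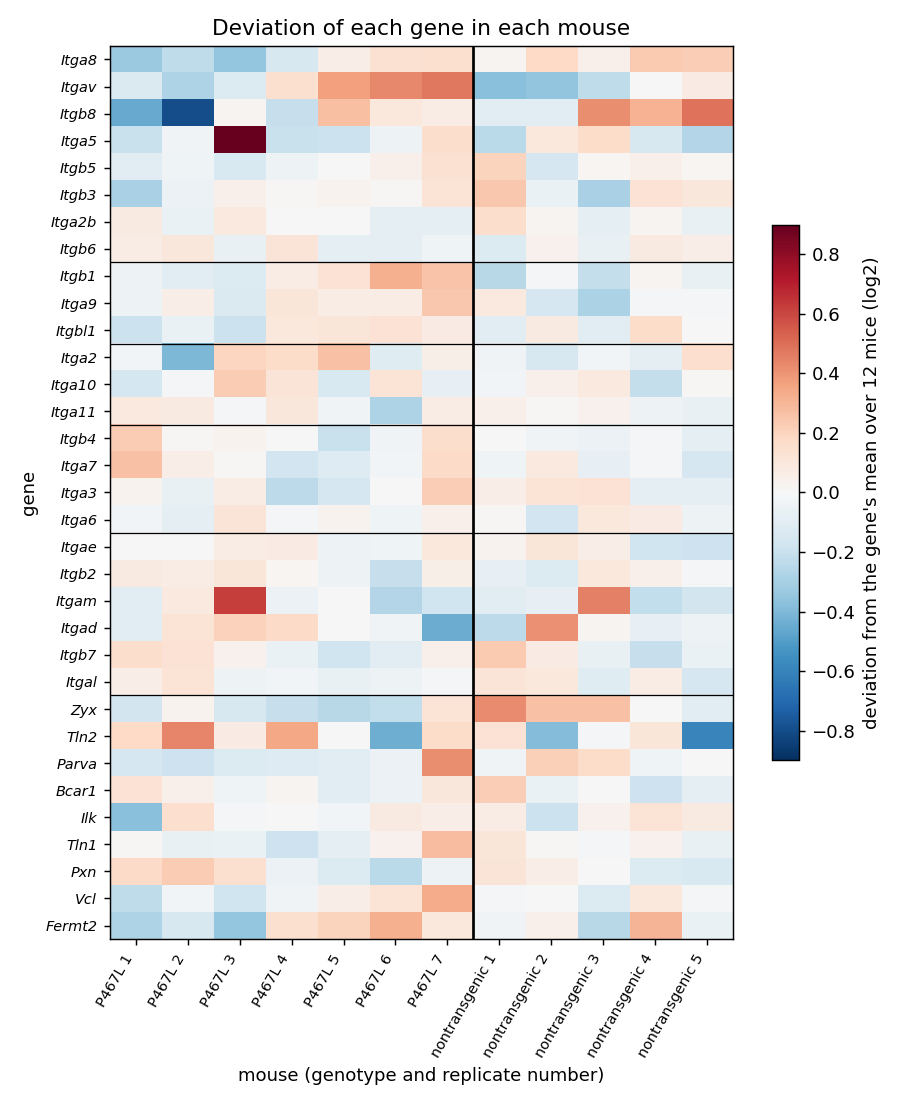
Deviation of each of the 33 genes from its own mean over the 12 mice, on the log2 scale, with P467L mice left of the black line and nontransgenic mice right of it, and genes grouped from top to bottom as RGD receptors, β1, α9 and β-like 1, collagen receptors, laminin receptors, leukocyte integrins and plaque genes. Itga5 and Itgam stand out in P467L replicate 3, Parva in P467L replicate 7, and Itgb8 is lowest in P467L replicate 2.

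Promoter sequences are given for the 4 genes of smallest unadjusted p and for Vcl, because PPARγ binds DNA and the smooth muscle adhesion genes include known targets of serum response factor. They are RefSeq windows of GRCm38.p6, from 250 bases before to 50 after the start of transcription, and 22 of the 33 genes had 1 or more. Capitals mark matches to the motifs searched on both strands. AGGTCA is a single site shared by many nuclear receptors. Its direct repeat with 1 base between the copies is the element of PPAR with RXR. The others were TGACTCA, the AP-1 site, and the CArG box of serum response factor. The windows are chr6:42349578-42349877 (plus strand) for Zyx, chr2:12301895-12302194 (minus strand) for Itga8, chr2:83724147-83724446 (plus strand) for Itgav, chr12:119238227-119238526 (minus strand) for Itgb8 and chr14:20929148-20929447 (plus strand) for Vcl.
Zyx: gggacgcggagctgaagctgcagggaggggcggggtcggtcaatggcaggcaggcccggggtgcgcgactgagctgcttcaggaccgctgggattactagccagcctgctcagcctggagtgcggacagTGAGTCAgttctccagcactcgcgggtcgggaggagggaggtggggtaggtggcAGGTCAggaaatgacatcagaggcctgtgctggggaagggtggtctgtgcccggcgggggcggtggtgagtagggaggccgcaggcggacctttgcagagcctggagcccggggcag
Itga8: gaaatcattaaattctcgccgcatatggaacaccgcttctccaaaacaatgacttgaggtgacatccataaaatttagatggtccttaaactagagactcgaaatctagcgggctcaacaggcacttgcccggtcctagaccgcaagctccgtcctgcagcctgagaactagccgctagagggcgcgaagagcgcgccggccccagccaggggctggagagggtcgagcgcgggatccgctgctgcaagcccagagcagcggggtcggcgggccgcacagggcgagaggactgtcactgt
Itgav: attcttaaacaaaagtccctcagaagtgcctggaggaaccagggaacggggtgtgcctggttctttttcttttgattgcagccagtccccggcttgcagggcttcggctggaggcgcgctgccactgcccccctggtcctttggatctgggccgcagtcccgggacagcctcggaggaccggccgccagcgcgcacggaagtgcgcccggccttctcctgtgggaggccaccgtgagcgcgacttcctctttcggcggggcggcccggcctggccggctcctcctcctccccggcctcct
Itgb8: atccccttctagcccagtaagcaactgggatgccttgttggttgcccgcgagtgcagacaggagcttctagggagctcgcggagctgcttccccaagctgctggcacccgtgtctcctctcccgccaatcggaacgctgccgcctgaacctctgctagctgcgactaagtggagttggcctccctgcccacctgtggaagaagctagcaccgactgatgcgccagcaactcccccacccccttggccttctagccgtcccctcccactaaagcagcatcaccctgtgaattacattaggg
Vcl: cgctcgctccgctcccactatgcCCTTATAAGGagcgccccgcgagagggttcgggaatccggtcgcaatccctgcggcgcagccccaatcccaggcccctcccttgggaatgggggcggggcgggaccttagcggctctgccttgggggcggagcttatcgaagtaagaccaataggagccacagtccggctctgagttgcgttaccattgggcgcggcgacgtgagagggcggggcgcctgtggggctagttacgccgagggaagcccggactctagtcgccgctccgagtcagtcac

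The single site AGGTCA was in the Zyx window, at bases 184 to 189, and in no other of the 26 windows of these genes, against 16.3% of all 32851 windows. The direct repeat was in none of the 26 and in 0.0396% of all windows. TGACTCA was in the windows of Zyx, at bases 130 to 136 on the other strand, and Itga9, against 5.2% of all windows. A CArG box was in the windows of Vcl, at bases 24 to 33, Fermt2 and Itgb6, against 1.63% of all. These are matches of letters in short windows, and binding was not measured.

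Mice of equal replicate number were set against each other, a pairing taken from these data, as the labels do not say what a number marks. Their arrays deviated from the group means together, but some arrays of unequal number did so as strongly (correlation up to 0.435). Of 5 nontransgenic arrays, 3 correlated best with their own number. P467L replicates 1, 2 and 5 correlated best with nontransgenic replicates 2, 1 and 4 (0.367, 0.405 and 0.435). With their own number these P467L replicates had 0.309, 0.398 and 0.398. The pairing is therefore uncertain. Within the 5 pairs Itga8 differed by -0.36, -0.41, -0.40, -0.38 and -0.16, P467L minus nontransgenic, for replicates 1 to 5. Itgb8 differed by -0.35, -0.70, -0.39, -0.52 and -0.22, and Zyx by -0.59, -0.24, -0.41, -0.20 and -0.14. Each of these genes was lower in the P467L mouse of all 5 pairs.

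Parva, Tln1 and Itga3 were also lower in all 5 pairs, and Itgav, Tln2 and Pxn higher in all 5. The differences in Itgav were 0.25, 0.07, 0.11, 0.15 and 0.30. Thus 9 of the 33 genes had 5 differences of 1 sign, where 2140 of all 19687 genes did (10.9%). With the replicate number as a block, 6 of the 33 had an unadjusted p under 0.05, against 1958 of all genes (9.95%), and none passed the adjusted threshold in limma. The 6 were Itga8, Itgb8, Zyx and Parva, all lower, and Itgav and Tln2, both higher. The blocked difference was -0.34 ± 0.07 (SE; limma adjusted p = 0.149) for Itga8, -0.44 ± 0.08 (limma adjusted p = 0.146) for Itgb8 and -0.32 ± 0.08 (limma adjusted p = 0.293) for Zyx. It was smaller than without the block for Itgav, at 0.18 ± 0.06 (limma adjusted p = 0.448) against 0.31, and for Itgb1, at 0.09 ± 0.07 against 0.18. The block rests on the 5 paired mice of each group, and P467L replicates 6 and 7 carry no information on genotype in it.

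**Figure D4:**
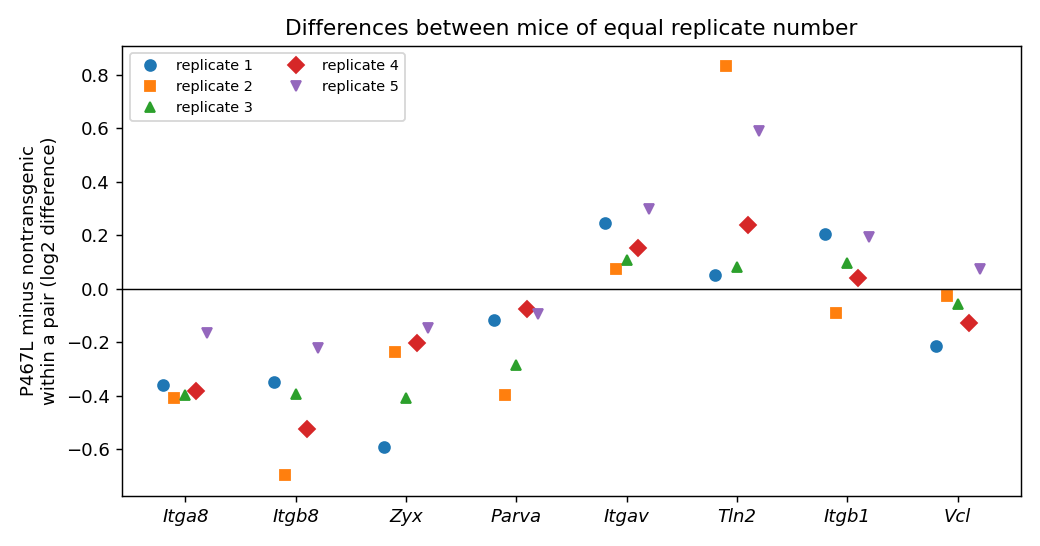
Difference P467L minus nontransgenic within each of the 5 pairs of equal replicate number, on the log2 scale, for the 6 genes with an unadjusted p under 0.05 in the blocked fit and, for contrast, Itgb1 and Vcl. All 5 differences of Itga8, Itgb8, Zyx and Parva lie below 0 and all 5 of Itgav and Tln2 above it, while those of Itgb1 and Vcl fall on both sides.

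Part of the spread within the groups ran with the upper quartile of the array. The upper quartile of each array, computed from the same table, had a slope past an adjusted p under 0.05 in 6492 of all 19687 genes (33%), with genotype in the same limma fit. Among the 33 it did so in 4: Itgav and Itgb8 were higher on arrays with a higher upper quartile, and Pxn and Itgb7 lower. In each group Itgb8 was lowest on the 2 arrays with the lowest upper quartile. P467L replicate 2, with an upper quartile of 6.10, had 5.32, and P467L replicate 5, at 6.38, had 6.39. Nontransgenic replicates 1 and 2, at 6.20 and 6.16, had 6.01 and 6.02, and nontransgenic replicate 5, at 6.38, had 6.61.

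With the upper quartile as a covariate, the difference was -0.22 ± 0.08 (SE) for Itgb8, against -0.35 without it, and 0.40 ± 0.09 for Itgav, the lowest adjusted p of any of the 33 genes in any alternative (limma adjusted p = 0.101). Zyx differed by -0.34 ± 0.08, Itgb1 by 0.21 ± 0.08 and Itga8 by -0.20 ± 0.09 in that fit. These 5 had an unadjusted p under 0.05 there, where 1558 of all genes did (7.91%). With array weights 4 did, Zyx, Itgav, Itgb1 and Itgb8, against 1177 of all genes (5.98%). What sets the upper quartile was not tested.

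**Figure D5:**
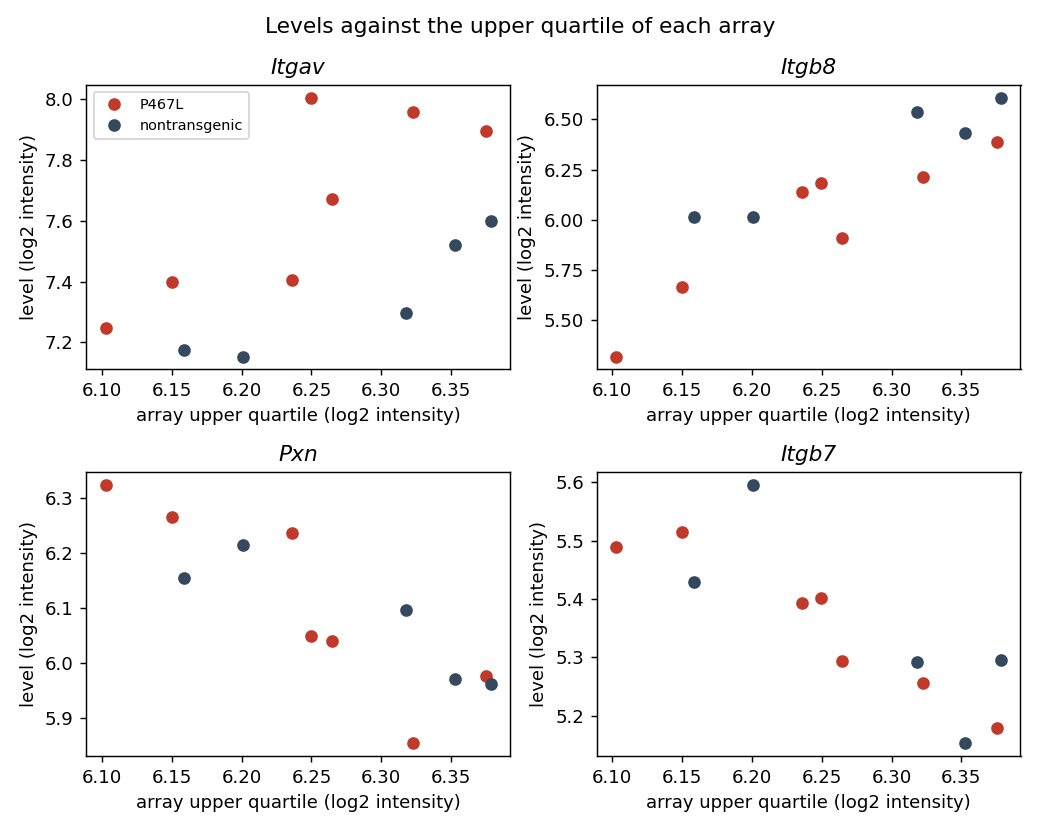
Level of Itgav, Itgb8, Pxn and Itgb7 in each mouse (vertical, log2 intensity) against the upper quartile of its array (horizontal, log2 intensity), with P467L and nontransgenic mice as separate colours; the axes do not start at 0. Itgav and Itgb8 are higher and Pxn and Itgb7 lower on arrays with a higher upper quartile in both groups, and the P467L points of Itgav lie above the nontransgenic ones at similar upper quartiles.

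The wider adhesion pathway was read from lists of genes outside the 33. These lists were drawn up with earlier results of these data known, so the count of called genes in a list is not independent of those results. The integrin ligands held the only genes of the 4 lists past the threshold: 2 of 40 measured were higher and 0 lower, against 23 higher and 25 lower among all 19687 genes (0.244%). Fn1, fibronectin, the ligand of α5β1, α8β1 and the αv receptors, ranged from 10.59 to 11.09 in P467L mice and from 10.10 to 10.34 in nontransgenic mice, without overlap. It differed by 0.62 ± 0.10 (SE; limma adjusted p = 0.0189), a call that ended without nontransgenic replicate 1, 3 or 5 (limma adjusted p = 0.0718, 0.0630 and 0.0560), at differences of 0.61, 0.60 and 0.62. Postn, periostin, a ligand of αv integrins, differed by 0.68 ± 0.11 (limma adjusted p = 0.0282) and ranged from 11.30 to 11.73 in P467L mice and from 10.60 to 11.14 in nontransgenic mice. Its call ended without nontransgenic replicate 1, 2 or 3 (limma adjusted p = 0.0901, 0.0615 and 0.0808) or P467L replicate 4, 5, 6 or 7 (0.0658, 0.0604, 0.0577 and 0.0554), at differences between 0.62 and 0.67. Over all alternatives the limma adjusted p ran from 0.00661 to 0.254 for Fn1 and from 0.000305 to 0.264 for Postn. Of the 9 fibroblast markers, which come from cells that also make matrix, 1 was lower and 0 higher past the threshold. Without regard to the threshold 5 of the 9 differences were above 0 and 4 below, with a median of 0.01 and a highest of 0.29. The marker called was Mfap5, a microfibril protein named after its values were seen. Mfap5 averaged 8.06 ± 0.14 in P467L and 8.70 ± 0.19 in nontransgenic mice (SD). It differed by -0.65 ± 0.10 (SE; limma adjusted p = 0.0183, and 0.0888 with the replicate block, in a range from 0.00599 to 0.234 over all alternatives). The fibroblast score ran from -0.12 to 0.07 in P467L mice and from -0.13 to 0.33 in nontransgenic mice. The summed log2 level of these markers is the same measure on another scale. It ran from 66.97 to 68.64 in P467L mice and from 66.85 to 70.97 in nontransgenic mice. The part of the fibroblast score in the levels of Fn1 and Postn was not tested.

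At an unadjusted p under 0.05 in limma, where 4.82% of all genes lay, 4 of the 40 ligands were higher and 3 lower. None of 32 further structural genes of the adhesion passed, 4 being higher and 2 lower at an unadjusted p under 0.05, and their median difference was 0.01. The 2 of smallest p were Parvb, β-parvin, at 0.70 ± 0.20 (SE), and Tns3, a tensin, at 0.24 ± 0.07 (limma adjusted p = 0.386 and 0.472). Parvb ranged from 5.87 to 6.97 in P467L mice and from 5.36 to 6.42 in nontransgenic mice, and its difference was larger than that of any of the 33. None of 32 adhesion signalling genes passed in limma and 0 had an unadjusted p under 0.05, with a median difference of -0.0017, and the nearest were Asap1 (0.18 ± 0.10) and Rap1a (-0.20 ± 0.12). None of 15 membrane partners of integrins passed, 2 being higher and 0 lower at an unadjusted p under 0.05, with a median difference of 0.06, and the nearest were the tetraspanin Tspan9 (0.20 ± 0.07) and Plaur, the urokinase receptor (0.21 ± 0.08).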

How the data were processed

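Total RNA of the thoracic aorta of 12 mice was amplified from about 50 ng with a NuGen kit and hybridised to mouse exon arrays, per the labels' protocols. The deposited values are log2 intensities; Affymetrix Power Tools, RMA and mm9 are named in the submitters' processing notes, without versions, probe set class or filters. The table held 101175 rows without missing values, of which 22754 had 1 gene symbol in the platform annotation, 1522 several and 76899 none. Precision is limited by how many arrays there are.

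The brightest row of each of the 19687 genes was tested, P467L minus nontransgenic, with lmFit and eBayes of limma 3.58.1 (R 4.3.3) over all 12 arrays, without covariate, and Benjamini-Hochberg adjustment over all genes. The 33 genes are all described, and from each of 4 pathway lists the genes past the threshold and the 2 of smallest p are named. A cell type score is the mean deviation of its markers from their own means. The genes, the lists and the tests were chosen with earlier results of these data known.

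Arrays with equal replicate numbers deviated together from their group means, so the numbers were taken to pair them. The correlations over genes ran from 0.227 to 0.398 for all 5 numbers. This comes from the data, as the labels do not say what a number marks. Some arrays of unequal number correlated as highly (up to 0.435). Of the nontransgenic arrays 3 of 5 correlated best with their own number, while P467L replicates 1, 2 and 5 correlated best with another number. Alternatives were this block, leaving out each array, quantile normalization, subtracted array medians, the upper quartile as covariate, array weights, only genes of higher signal, a trended robust variance, the mean over a gene's rows, all rows and an adjusted p under 0.1. Dropping the 3 least correlated arrays together was chosen after seeing the data. These 3 also had the lowest upper quartiles, 6.10 and 6.15 in P467L replicates 2 and 1 and 6.16 in nontransgenic replicate 2. Dropping them and the upper quartile covariate are therefore not independent checks.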

Additional observations from a re-analysis of the deposited data

Results flagged for a closer look

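Of 66 groups of values (33 genes in 2 genotypes), 8 held 1 mouse far from the others by Dixon's test, which chance alone does in about 1 of 20 groups. Itga5 was high in P467L replicate 3 (8.41, the others at most 7.68). Itgam was high in P467L replicate 3 (5.82, the others at most 5.29) and in nontransgenic replicate 3 (5.65, the others at most 5.12). Parva was high in P467L replicate 7 (8.28, the others at most 7.81).

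Ilk was low in P467L replicate 1 (8.12, the others at least 8.46) and in nontransgenic replicate 2 (8.30, the others at least 8.53). Itgb3 was low in P467L replicate 1 (7.16, the others at least 7.40), and Itga11 in P467L replicate 6 (5.00, the others at least 5.24). No cause was tested for these values.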

How the results depend on the processing

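None of the 33 genes passed the threshold in limma in any of the 22 alternatives; the lowest adjusted p was 0.101, for Itgav with the upper quartile as covariate. Their median difference stayed between -0.01 and 0.03, less than the spread between mice of 0.04. The sign changed in 86 instances among 19 genes, whose differences in the fit without a block all lay within 1 SE of 0; with the block, Vcl differed by -0.07 ± 0.07, against 0.02 without it. Testing the brighter genes alone left 27 of the 33. The replicate block raised the count of unadjusted p under 0.05 among the 33 to 6, against 2 without it, and changed no call among the 33. Among all genes it raised that count to 1958, against 949. The count of all genes past the threshold, 48, was 30 with the replicate block, 76 after quantile normalization, 106 with the upper quartile as covariate, 9 among all rows and 8 without the 3 least correlated arrays. It ran from 11 to 48 without 1 array: 11, 18, 13 and 22 without nontransgenic replicates 1, 3, 4 and 5, and 29, 22, 24, 24 and 30 without P467L replicates 2, 4, 5, 6 and 7. The cause of these shifts was not tested. Genes near or under the background level can hide differences, which touches Itga2, Itgb6 and the leukocyte integrins, Bcar1 and, just above background, Itga2b, Itga6 and Itga11.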
